A study of Mus musculus with 4 samples.

Results

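The genes examined here are 34 components of fibroblast growth factor (FGF), epidermal growth factor (EGF), MAPK and PI3K signalling, chosen by name because FGF2 and EGF were the growth factors of the culture medium. These genes were chosen with earlier results of these data known, so the choice was not blind to the reads. They were looked up in 2 tables of transposon insertion reads per gene, which together listed 5614 genes. Of the 34 genes, 14 had at least 1 read in either table and 20 had none. The data come from mouse haploid neural stem cell-like cells, in which a disrupting insertion leaves no intact gene copy while the single chromosome set is kept. They were derived from haploid embryonic stem cells of 129Sv background through embryoid bodies grown for 3 days, in a medium that held FGF2 and EGF at 20 ng/ml each, the BMP receptor inhibitor LDN193189 at 300 nM, the activin/TGF-beta receptor inhibitor SB431542 at 10 µM and a ROCK inhibitor (Y-27632, thiazovivin or both, with no statement of which was used for these samples). The cells received 20 µg of a piggyBac gene trap plasmid and 10 µg of a transposase construct, and cells with a trapped gene were selected with the drug G418. Junctions of transposon and genome were then amplified by splinkerette PCR from genomic DNA and sequenced.

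The 4 samples form library 1 and library 2, each a table that pools 2 samples, and the labels name no allele, treatment or time that differs between them. There is therefore 1 value per gene and library, no replicate spread and no test of a difference, and every interval below covers counting error only. Library 1 held 55442 nonredundant reads over 4184 genes and library 2 held 48750 over 3168 genes. The median listed gene had 1 read in each. A gene absent from a table had 0 reads there, which allows a share of up to 0.00541% of library 1 and 0.00615% of library 2 (3 reads of the total, the floor used for every gene at 0). Reads are PCR products without molecular identifiers, so they count neither independent insertions nor cells, and genomic DNA gives no level of expression. Which promoter drives the G418 resistance of the trap plasmid is not given in the labels.

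As background, FGF and EGF bind receptor tyrosine kinases at the cell surface, those of FGF encoded by Fgfr1 to Fgfr4 and that of EGF by Egfr, whose relatives Erbb2 to Erbb4 pair with it or bind related ligands. Active receptors recruit adaptor proteins, which bring the exchange factors Sos1 and Sos2 to RAS and start the RAF, MEK and ERK kinase cascade, and which also engage PI3K and through it AKT and mTOR. Neural stem cells in culture are commonly kept dividing with FGF2 and EGF, and Sprouty and Spred proteins dampen the RAS branch as feedback inhibitors.

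The members with most reads were Pik3r1 and Map2k1 in library 1 and Gab2 in library 2. Their gene starts are shown where the RefSeq promoter table (build GRCm38.p6) held them, because piggyBac inserts at the bases TTAA and the windows show how often such a site lies near the start. Each sequence covers 250 bases before to 50 after the start site, 5′ to 3′ in the direction of the gene, with every TTAA in capitals. Map2k2, the paralogue of Map2k1 that had no reads, is given beside it. The deposited tables give no positions, so no read can be placed in or outside these windows.
Map2k1, chr9:64253556-64253855, strand -: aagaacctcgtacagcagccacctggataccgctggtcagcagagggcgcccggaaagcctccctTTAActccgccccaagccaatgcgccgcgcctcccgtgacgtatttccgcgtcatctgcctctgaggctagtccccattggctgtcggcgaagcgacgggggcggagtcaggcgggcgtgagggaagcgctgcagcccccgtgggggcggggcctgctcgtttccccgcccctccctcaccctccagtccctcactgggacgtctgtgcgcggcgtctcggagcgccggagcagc
Map2k2, chr10:81105665-81105964, strand +: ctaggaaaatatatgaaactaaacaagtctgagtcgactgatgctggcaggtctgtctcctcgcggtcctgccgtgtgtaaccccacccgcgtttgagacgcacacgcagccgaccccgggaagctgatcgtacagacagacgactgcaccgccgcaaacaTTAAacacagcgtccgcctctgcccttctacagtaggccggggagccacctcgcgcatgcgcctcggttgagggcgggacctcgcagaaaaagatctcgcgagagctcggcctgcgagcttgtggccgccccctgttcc
Pik3r1, upstream start, chr13:101768168-101768467, strand -: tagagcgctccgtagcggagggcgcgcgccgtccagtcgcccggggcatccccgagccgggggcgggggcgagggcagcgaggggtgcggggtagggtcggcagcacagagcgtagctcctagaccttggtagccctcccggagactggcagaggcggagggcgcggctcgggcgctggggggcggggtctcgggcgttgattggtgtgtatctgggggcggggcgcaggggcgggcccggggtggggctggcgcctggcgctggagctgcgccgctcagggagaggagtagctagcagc
Pik3r1, downstream start, chr13:101692581-101692880, strand -: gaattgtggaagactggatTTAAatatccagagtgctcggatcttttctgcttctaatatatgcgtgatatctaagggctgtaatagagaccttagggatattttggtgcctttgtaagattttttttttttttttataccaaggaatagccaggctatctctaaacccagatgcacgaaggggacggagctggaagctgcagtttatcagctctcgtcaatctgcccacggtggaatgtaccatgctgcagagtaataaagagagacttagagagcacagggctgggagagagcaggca

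The listed Map2k1 and the unlisted Map2k2 both had 1 TTAA in this window, at position -185 and -89 from the start site. In Pik3r1 the upstream window, with a GC content of 75.7%, had 0 and the downstream window, with 43.7%, had 1. TTAA reads the same on both strands, and it was found in 15 of 38 windows of the 29 members in the table (39.5%) against 17210 of 32851 windows of all genes (52.4%). It was in 8 of 19 windows of members with reads and in 7 of 19 windows of members without. A match is a description of the letters only, and the windows are short beside the genes, of which Map2k1 spans 67.8 kb and Pik3r1 87.5 kb.

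In library 1, 10 of the 34 members were listed (29.4%), where 19.9% of all 21035 genes with curated transcripts were listed. In library 2 it was 6 of 34 (17.6%) against 15.0% of all genes, and in either library 14 of 34 (41.2%) against 26.6%. The members are long genes, with a median length of 61.0 kb in the RefSeq annotation of GRCm38.p6, a later build than the mm9 of the tables, against 17.7 kb for all genes, and long genes were listed more often. The mean over the 34 members of the percentage listed in each one's own length class, out of 10 classes of equal size, was 32.1% in library 1, 23.6% in library 2 and 41.6% in either. The members' counts were near those values. Just 2 members, Erbb4 and Gab2, were in both libraries (5.88% of members, against 8.25% of all genes and a mean of 14.0% over the members' length classes). Among genes listed in either library, that is 2 of 14 members (14.3%) against 31.0% of all genes, while 8 members were in library 1 alone and 4 in library 2 alone.

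**Figure D1:**
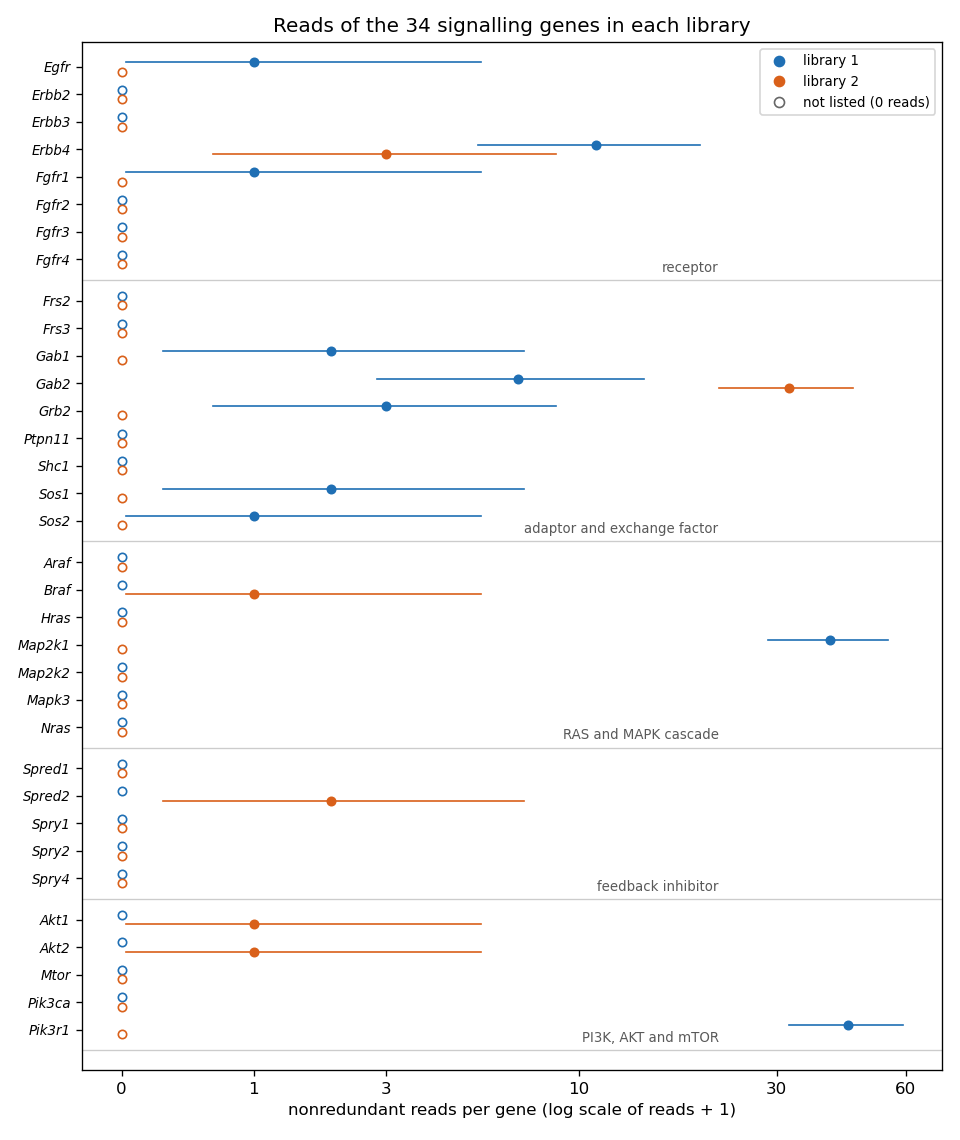
Nonredundant reads of each of the 34 genes (x axis, log scale of reads + 1) in library 1 (blue) and library 2 (orange), grouped by role. Lines are exact 95% intervals of the share of the library expressed in reads, which cover counting error only, and open points are genes not listed, drawn without an interval. Pik3r1 (44) and Map2k1 (40) in library 1 and Gab2 (32) in library 2 stand to the right of every other value, and most members are at 0 in both libraries.

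Receptors were listed for 3 of 8 members, where their length classes had a mean of 41.9% listed in either library. Erbb4, a receptor of the neuregulins, had 11 nonredundant reads in library 1 and 3 in library 2. Its share was 0.0198% of library 1 (exact Clopper-Pearson 95% interval 0.00991 to 0.0355) and 0.00615% of library 2 (0.00127 to 0.0180). The ratio of library 1 to library 2 was 3.22 with a counting interval of 0.852 to 18.0, so a difference was not detectable at this depth. Erbb4 is the longest member, at 1077 kb, and per length it was among the lowest, with 0.0102 reads per kb in library 1 and 0.00279 in library 2. Of the genes listed in library 1, 20.0% had fewer reads per kb, and of those in library 2, 2.59%. Since a listed gene has at least 1 read, only long genes can have values this low.

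The receptors of the growth factors in the medium had at most 1 read. Fgfr1, a main FGF receptor of neural progenitors, had 1 nonredundant read (3 redundant) in library 1, and Egfr, the receptor of EGF, had 1 (1 redundant) there. Neither was listed in library 2. Fgfr2, Fgfr3, Fgfr4, Erbb2 and Erbb3 were listed in neither library. Of these 5, Fgfr2 is 104 kb long, in a class of which 56.8% of genes were listed in either library, while the other 4 are 15.3 to 25.2 kb, in classes with 15.3% and 21.3% listed.

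A single read is weak evidence of an insertion. It was the value of 3 of 10 listed members in library 1 and 3 of 6 in library 2, against 53.7% and 59.7% of all listed genes. As a scale for values of 1 and 2 reads, 3 genes on the Y chromosome were listed in library 1 and 7 in library 2, each with at most 2 reads. Of these, 2 and 4 had 1 read. The genes with curated transcripts include 78 on the Y chromosome. The labels do not state the sex chromosome of the cells.

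Adaptors and exchange factors were listed for 5 of 9 members, all of them in library 1 and 1 of them also in library 2, where their length classes had a mean of 52.5% listed in either library. Gab2, a docking protein that links receptors to PI3K and to the phosphatase SHP2, had 7 nonredundant reads in library 1 and 32 in library 2. These were 0.0126% of library 1 (0.00508 to 0.0260) and 0.0656% of library 2 (0.0449 to 0.0927). The 2 intervals do not overlap, and the share was 5.20 times higher in library 2 (counting interval 2.25 to 14.0). Since each library is 1 pool, this compares these pools of reads. In library 2, Gab2 held rank 154 among listed genes by reads, and 95.1% of them had fewer.

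The remaining adaptors had few reads. Grb2, the adaptor that carries Sos proteins to receptors, had 3 reads in library 1. Gab1, the paralogue of Gab2, and Sos1, an exchange factor that loads RAS with GTP, had 2 each there, and Sos2 had 1. None of these 4 was listed in library 2. Frs2 and Frs3, docking proteins of the FGF receptors, Shc1, an adaptor of EGF receptors, and Ptpn11, which encodes SHP2, were listed in neither library.

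In the RAS and MAPK cascade, 2 of 7 members were listed, against a mean of 33.5% in their length classes, and Map2k1 alone had more than 1 read. Map2k1 encodes MEK1, a kinase that phosphorylates ERK, and had 40 nonredundant reads in library 1 and 0 in library 2. That was 0.0721% of library 1 (0.0516 to 0.0982), at least 11.7-fold higher than in library 2 when its count of 0 is set to the floor of 3 reads, a bound that leaves out the counting error of the 40 reads. Its paralogue Map2k2, which encodes MEK2, was listed in neither library. The genes differ in length, 67.8 kb for Map2k1 and 18.8 kb for Map2k2, and 56.8% and 21.3% of genes in their length classes were listed in either library.

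Of the other cascade members, Braf, a RAF kinase, had 1 read in library 2. Hras, Nras, Araf and Mapk3, which encodes ERK1, had no reads. Hras, Nras and Mapk3 are 4.09, 9.63 and 6.19 kb long, and 2.38%, 10.2% and 5.28% of genes in their length classes were listed. Araf, on the X chromosome, is 62.8 kb long, in the class with 56.8% listed.

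Feedback inhibitors were listed for 1 of 5 members, against a mean of 27.9% in their length classes. Spred2, which restrains RAF activation, had 2 nonredundant and 13 redundant reads in library 2, and 0 in library 1. Spred1, Spry1, Spry2 and Spry4 were not listed. Spry1 and Spry2 are 4.65 and 4.87 kb long and Spry4 15.1 kb, whereas Spred1 is 61.2 kb, and 5.28%, 15.3% and 56.8% of genes in those 3 length classes were listed in either library. A count of 0 was thus the usual value for genes as short as the Sprouty genes.

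Of the PI3K, AKT and mTOR members, 3 of 5 were listed, against a mean of 46.8% in their length classes. Pik3r1 encodes the p85-alpha regulatory subunit, which holds the PI3K catalytic subunit and brings it to receptors. It had the most reads of any member in library 1, 44 nonredundant and 376 redundant, and 0 in library 2. This was 0.0794% of library 1 (0.0577 to 0.107), at least 12.9-fold higher than in library 2 at the same floor of 3 reads, again without the counting error of library 1. Its interval overlaps that of Map2k1, so the order of these 2 genes is not resolved, and per length it turns around, with 0.590 reads per kb for Map2k1 and 0.503 for Pik3r1. On that scale Pik3r1 exceeded 94.3% of the genes listed in library 1, and Map2k1 somewhat more. Akt1 and Akt2, kinases downstream of PI3K, had 1 read each in library 2. Pik3ca, the catalytic subunit p110-alpha, and Mtor, the kinase of the mTOR complexes, had none in either library.

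Few members thus carried most of the reads. In library 1 the members summed to 112 nonredundant reads or 0.202% of the library (0.166 to 0.243), and Pik3r1 and Map2k1 held 84 of them. In library 2 they summed to 40 reads or 0.0821% (0.0586 to 0.112), of which Gab2 held 32 (80.0%). The members' share was 2.46 times higher in library 1 (counting interval 1.70 to 3.63), but its direction rests on those few genes. It turned to 0.615 without Pik3r1 and Map2k1 (0.366 to 1.02), and was 11.5 without Gab2 (5.65 to 27.4), 7.47 without Pik3r1 in library 1 and Gab2 in library 2, and 3.99 with redundant reads. Without all 3 genes it was 2.31 with an interval of 0.982 to 6.03. Members with 10 or more reads numbered 3 of 34 in library 1 (8.82%, against 2.37% of all genes) and 1 of 34 in library 2 (2.94%, against 1.40%). For genes of the members' length classes the mean percentages were 3.83% and 2.43%. The exact intervals of the members' percentages include these means, at 1.86 to 23.7% in library 1 and 0.0744 to 15.3% in library 2. Of listed members, 3 of 10 had 10 or more reads in library 1 (6.67 to 65.2%, against 11.9% of all listed genes). In library 2 it was 1 of 6 (0.421 to 64.1%, against 9.28%). These intervals treat the members as independent draws, but the members were chosen with earlier results of these data known. The intervals therefore cannot decide whether members with 10 or more reads were in excess in either library. Members with 2 or more reads numbered 7 of 34 in library 1 and 3 of 34 in library 2, where 9.19% and 6.07% of all genes had that many. Those percentages cover genes of all lengths and are not adjusted for the greater length of the members. Per kb, 6 of the 10 members listed in library 1 and 4 of the 6 in library 2 were below the median of all listed genes, which was 0.0247 and 0.0211 reads per kb. Gab2, with 0.0308 reads per kb in library 1, was above that median, and with 0.141 in library 2 exceeded 90.3% of the listed genes. A listed gene has at least 1 read, so short listed genes cannot have low values on this scale and long ones can. With 1 read each, Egfr (162 kb) exceeded 7.78% of listed genes in library 1 and Akt1 (21.1 kb) 75.4% in library 2. Positions below the median therefore partly reflect gene length.

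**Figure D2:**
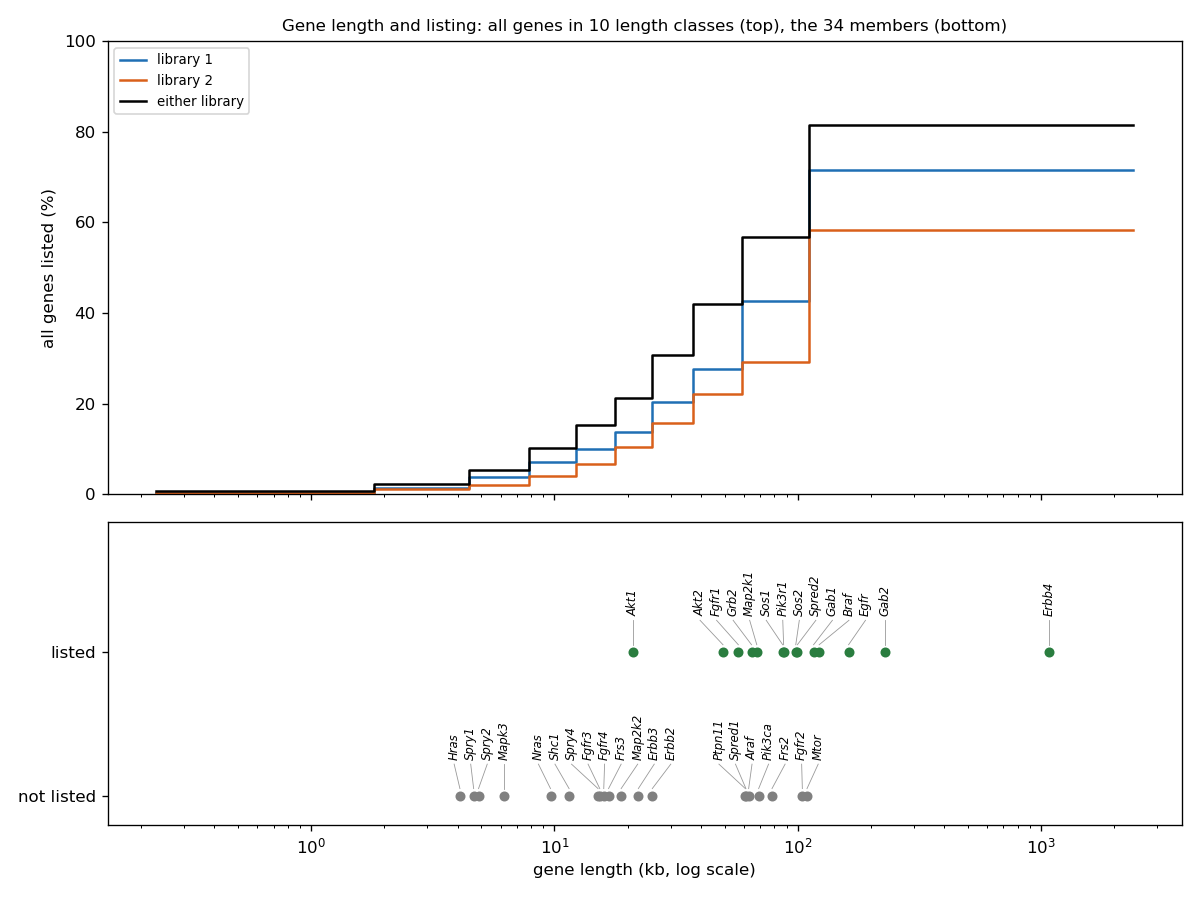
Top, the percentage of all genes listed in library 1 (blue), library 2 (orange) and either (black) in 10 length classes of equal gene number, against gene length in kb on a log scale. Bottom, the 34 members at their own gene length, listed in either library (green) or not (grey). The percentage in either library reached 81.6% in the longest class, and among members shorter than 49.3 kb Akt1 alone was listed.

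Length separated most of the members. Listed members had a median length of 92.8 kb and unlisted ones 17.7 kb. All 5 members of the longest class (111 kb or more), which are Erbb4, Gab2, Egfr, Braf and Gab1, were listed, where 81.6% of all genes of that class were. In the class below, 58.8 to 111 kb, 6 of 13 were listed against 56.8%. The 7 unlisted members of that class are Mtor (109 kb), Fgfr2 (104 kb), Frs2 (78.3 kb), Pik3ca (69.0 kb), Araf (62.8 kb), Spred1 (61.2 kb) and Ptpn11 (60.9 kb). The 6 listed ones are Grb2, Map2k1, Sos1, Pik3r1, Sos2 and Spred2, from 64.6 to 99.6 kb. Among the 16 shorter members 3 were listed, Akt1 (21.1 kb), Akt2 (49.3 kb) and Fgfr1 (57.0 kb), each with 1 read, against 16.0% of all genes in these classes.

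Pairs of related genes mostly had few reads on both sides. Sos1 (86.7 kb) and Sos2 (98.1 kb) had 2 and 1 reads, both in library 1. Gab1 (116 kb) had 2 reads in library 1 and none in library 2, beside 7 and 32 for Gab2 (227 kb). Spred1 (61.2 kb) had none and Spred2 (99.6 kb) 2. Akt1 and Akt2 had 1 each. Frs2 and Frs3 had none, nor did Hras and Nras. The widest contrasts within a pair were Map2k1 with Map2k2 in library 1 (40 and 0 reads) and Gab2 with Gab1 in library 2 (32 and 0). In both, the 95% interval of the listed gene lay above the floor of the other.

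Redundant reads, the second count in the tables, were many more than nonredundant reads in the leading members. Pik3r1 had 8.55 redundant reads per nonredundant read and Map2k1 had 6.15 in library 1, while Erbb4 had 2.00 (22 redundant reads) and Gab2 1.29 (9 redundant reads) there. Gab2 had 7.13 in library 2, from 228 redundant reads. These ratios are below those of the summed reads of each library, 15.8 in library 1 and 26.7 in library 2. Grb2, Gab1, Sos1 and Egfr had equal counts of both kinds, as did Erbb4, Braf, Akt1 and Akt2 in library 2. Spred2, with 2 nonredundant reads in library 2, had a ratio of 6.50, Fgfr1 3.00 and Sos2 2.00. Equal counts are found in 56.4% of genes of library 1 and 56.2% of library 2. Among the 248 genes of library 1 with 20 to 100 nonredundant reads, 79.8% had a lower ratio than Pik3r1 and 64.1% a lower ratio than Map2k1. Among the 126 such genes of library 2, 74.6% had a lower ratio than Gab2.

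**Figure D3:**
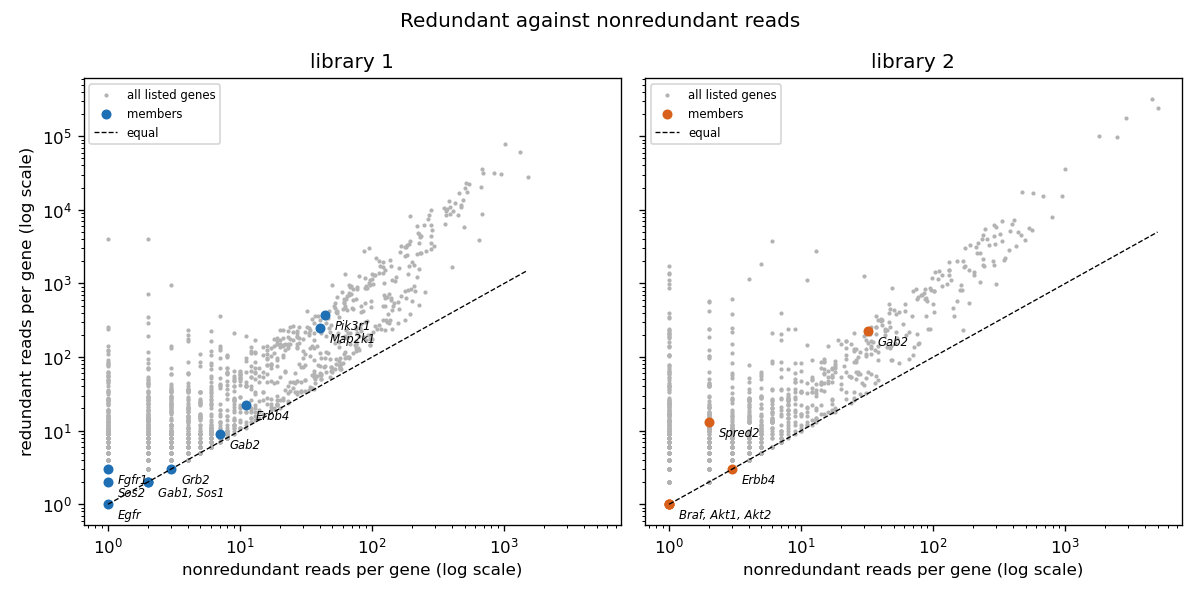
Redundant reads (y axis) against nonredundant reads (x axis) per gene, both on log scales, for all listed genes (grey) and the members (coloured, named) in library 1 (left) and library 2 (right). The dashed line marks equal counts. Pik3r1 (44 and 376 reads), Map2k1 (40 and 246) and, in library 2, Gab2 (32 and 228) lie well above the line, and most members with 1 to 3 reads lie on it or near it, whereas Fgfr1 in library 1 (1 and 3) and Spred2 in library 2 (2 and 13) lie above it.

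Reads of overlapping or adjacent genes were looked up because the rule by which the authors gave a read to a gene is not stated. By the RefSeq annotation, Arhgef33 overlaps Sos1, and in library 1 both had 2 nonredundant and 2 redundant reads, and whether the same reads were counted for both was not tested. In library 2 Arhgef33 had 1 read and Sos1 none. Reads in genes overlapping an unlisted member were found for Syn1, a synapsin gene that overlaps Araf, with 2 and 1 reads, and for Kcnmb3, which overlaps Pik3ca, with 1 in library 1. Uchl4, which overlaps Map2k1, had no reads, and no gene of that annotation overlaps Pik3r1 or Gab2. Among the neighbours, Ndfip2, next to Spry2, had 131 reads in library 2, Arhgap26, next to Spry4, had 100 in library 1 and 3 in library 2, and Tacc1, next to Fgfr1, had 52 and 8. Tipin, next to Map2k1 and named after its values were seen, had 8 reads in library 1.

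Other genes of these pathways, 66 that are not among the 34, were listed for 38 members in either library (57.6%), where the mean percentage for their length classes was 50.5%. They are also long, with a median of 76.3 kb. Of 19 genes grouped as ligands by family 8 were listed (42.1%, against a class mean of 50.7%). The listed ones include Fgf12, Fgf13 and Fgf14, which act inside cells. The percentage is therefore not that of receptor ligands alone. Of 15 adaptors and RAS regulators 10 were listed (66.7%, against 55.5%). Of 16 cascade and feedback genes 9 were listed (56.2%, against 45.0%), and of 16 PI3K and mTOR genes 11 (68.8%, against 50.9%). Those with 10 or more reads numbered 6 of 66 in library 1 and 2 of 66 in library 2, where the class means were 5.77% and 3.39% of genes. Nf1, a GTPase-activating protein that switches RAS off, had 182 and 1 reads in libraries 1 and 2. Rasgrp1, an exchange factor for RAS, had 141 and 0, and Rasal2, a further GTPase-activating protein of RAS, had 35 and 7.

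Among the genes grouped as ligands, Fgf14 and Fgf12, members of the FGF family that act inside cells, had 3 and 96 reads and 5 and 5 reads. The neuregulin gene Nrg3 had 10 and 5. The adaptor gene Sh3kbp1 had 26 and 0, the scaffold gene Ksr2 10 and 4, the exchange factor gene Rasgrf2 4 and 10, and the small GTPase gene Rit2 5 and 6. All of these but Rasgrp1, which is 62.9 kb, lie in the longest class of genes. None of the 16 PI3K and mTOR genes of this second list reached 10 reads in either library, whereas Pik3r1 did so in library 1.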

How the data were processed

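Genomic DNA of 4 samples was measured as 2 tables of reads per gene, each pooling the 2 samples whose labels name it, and library 1 and library 2 are those tables. Per the file headers and values, the deposited columns are raw whole-number counts of nonredundant and redundant reads per gene, with no normalization by the authors. Per the submitters' processing notes, CASAVA and BWA were used with build mm9. No source used here gives the rule that assigned reads to genes or the definition of nonredundant.

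Nonredundant counts were used for main values. Table genes were matched by transcript, then symbol, then synonym, to a RefSeq gene table of GRCm38.p6 (4182 of 4184 and 3167 of 3168 matched). Its lengths sorted 21035 genes with curated transcripts into 10 classes of equal size, and none of its gene coordinates are printed. Shares have exact Clopper-Pearson 95% intervals and ratios exact conditional binomial intervals. Both were checked on simulated counts. With 1 pool per library no count model could be fitted. The members and the second gene list were chosen with earlier results of these data known. All members are named; the second list's 10 genes with most reads and the 3 overlapping or adjacent genes with most reads are also named, with exceptions stated in place. Alternatives were other read minima, redundant reads, other denominators, symbol matching and protein coding genes. Python 3.11.15, scipy 1.17.1 and pandas 2.3.3 were used.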

Additional observations from a re-analysis of the deposited data

How the results depend on the processing

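With a minimum of 2 nonredundant reads, 8 members were listed in either library, and 7 and 3 in libraries 1 and 2. With 2 redundant reads these were 10, 9 and 3. With 10 nonredundant reads they were 4, 3 and 1, and 0 were in both. Of all genes, 9.19% in library 1 and 6.07% in library 2 had 2 or more nonredundant reads, and 2.37% and 1.40% had 10 or more. For 2 redundant reads, and for either or both libraries at these higher minima, no share of all genes is given, so those counts have no comparison. The members' share was 0.0759% of redundant reads in library 1 and 0.0190% in library 2. Without the member with most reads, it was 0.123% in library 1 (without Pik3r1) and 0.0164% in library 2 (without Gab2). Without the 10 genes with most reads in the library, the shares were 0.241% and 0.142%. The members' share in library 1 over that in library 2 was 3.99 with redundant reads, 1.70 without those 10 genes, 7.47 without Pik3r1 in library 1 and Gab2 in library 2, and 11.5 without Gab2 alone. It turned to 0.615 without Pik3r1 and Map2k1 and was 2.31 without Pik3r1, Map2k1 and Gab2. These last 4 settings were chosen after seeing the data. The direction of the ratio therefore depends on which leading members are counted. Matching by exact symbol changed none of the member counts, and protein coding genes alone left the percentages of all genes at 19.9%, 15.0% and 26.6%. Leaving out a sample was not run, because each table pools its samples. No paired analysis was possible because the tables hold no values per sample. Depth limits the members with 1 to 3 reads most, since their intervals reach close to 0.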

Other observations

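The ratio of redundant to nonredundant reads was widely spread in library 1. Of its 248 genes with 20 to 100 nonredundant reads, 34.7% had a ratio from 1 to below 2, 11.3% from 2 to below 3 and 8.06% from 3 to below 4. A further 8.47% had 4 to below 6, 15.7% 6 to below 8, 16.5% 8 to below 12 and 5.24% 12 or more. These steps differ in width. Pik3r1 (8.55) lay in the step from 8 to below 12 and Map2k1 (6.15) in that from 6 to below 8. Gab2 (1.29) and Erbb4 (2.00), with fewer than 20 reads there, had low ratios. In library 2 the same steps held 20.6%, 12.7%, 13.5%, 18.3%, 17.5%, 15.1% and 2.38% of 126 genes. Tsc2, which encodes an inhibitor of mTOR signalling and is named after its values were seen, had 2 nonredundant and 3978 redundant reads in library 1, and 1 of each in library 2.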
